A study of Homo sapiens with 16 samples.

Results

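Hyaluronan and versican genes were followed in macrophages grown from THP-1 cells. THP-1 is a leukaemia line of human monocytic origin that stands in for blood monocytes. The 8 genes were VCAN, TNFAIP6, CD44, HAS1, CEMIP, CEMIP2, HYAL2 and HYAL3. They were taken as every line of the deposited count table whose gene symbol was on this list, which gave 8 of 60664 genes, each found once. Of the 8, 7 had enough counts to be tested among 15301 genes, and HAS1 did not.

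RNA was sequenced in 16 libraries, 4 in each of 4 groups, all labelled wild type. Every group was first treated with the phorbol ester PMA at 100 ng/mL for 48 hours, which turns THP-1 cells into unpolarized macrophages (M0). M0+LPS+IFN-γ+iMSCs libraries came from M0 cells given lipopolysaccharide (LPS) of Porphyromonas gingivalis at 100 ng/mL and interferon-gamma (IFN-γ) at 20 ng/mL for 48 hours, while sharing a well with iMSCs, mesenchymal stem cells made from induced pluripotent stem cells. M0+LPS+IFN-γ libraries had the same stimulation without iMSCs, M0+iMSCs libraries had the iMSCs for 48 hours without stimulation, and M0 libraries had neither. A Transwell insert kept the iMSCs in its upper chamber, above a membrane that passes soluble factors. Which chamber gave the RNA is not stated. The count columns of both co-culture groups carry the letters CM, which the labels do not explain. All libraries are of 1 cell line, and the labels do not say whether each is a culture of its own. The p-values therefore measure the spread between these libraries, which may be technical. In these bulk libraries a change in the number of cells expressing a gene and a change in RNA per cell cannot be told apart.

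Hyaluronan is a long sugar polymer without a protein core, made at the plasma membrane by hyaluronan synthases and extruded into the matrix. Versican is a large chondroitin sulfate proteoglycan that binds hyaluronan, and together they form a pericellular matrix that myeloid cells can adhere to. CD44 is the main hyaluronan receptor of leukocytes, the product of TNFAIP6 (TSG-6) modifies and cross-links hyaluronan, and CEMIP, CEMIP2 and the hyaluronidases take part in its breakdown.

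The libraries held 17336637 to 24368753 counts. Levels are given as CPM, a gene's counts divided by those of its library and set to a common total, after scaling each library by trimmed-mean (TMM) factors, and errors of levels are SDs of 4 libraries. A fold change is on the log2 scale with its SE, and a gene was called at an adjusted p under 0.05 in the quasi-likelihood test of edgeR, adjusted over all genes tested. All 10 macrophage markers looked up (CD14, CD68, ITGAM, CSF1R, LYZ, SPI1, TYROBP, FCER1G, AIF1 and PTPRC) had counts in every group. CD68 had 9 in M0+LPS+IFN-γ+iMSCs, 21 in M0+LPS+IFN-γ, 12 in M0+iMSCs and 17 in M0, and it shares 81.7% of its exonic bases with another gene of the same strand in GENCODE 29. The summed level of the 10 was 4930 to 5130 CPM in M0+LPS+IFN-γ+iMSCs, 2652 to 5039 in M0+LPS+IFN-γ, 1485 to 1598 in M0+iMSCs and 1537 to 1635 in M0. The 5039 CPM was that of M0+LPS+IFN-γ replicate 4. FCER1G, the largest part of that sum, had 1850 CPM there, against 1070, 1170 and 1130 in the rest of the group. Replicate 4 of M0+LPS+IFN-γ stood apart, with 211 of 4812 well-counted genes 2-fold or more away from the average of its 3 companions, against 0 to 29 genes in the other 15 libraries. M0+iMSCs replicates 1 and 2 also differed from replicates 3 and 4. For the 7 tested genes, calls that change without these libraries are given both ways.

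Co-culture under stimulation raised VCAN and HYAL3 and lowered CEMIP, CEMIP2, CD44 and TNFAIP6, the last with a direction that changed when libraries were scaled by their totals alone. Thus 2 of the 7 tested genes rose (38.4% of all genes did) and 4 fell (36.3%), and 74.7% of all 15301 genes were called in that comparison of M0+LPS+IFN-γ+iMSCs with M0+LPS+IFN-γ. Stimulation in the presence of iMSCs, M0+LPS+IFN-γ+iMSCs against M0+iMSCs, raised 3 (39.3%) and lowered 4 (35.1%), with 74.4% of all genes called. Stimulation without iMSCs, M0+LPS+IFN-γ against M0, raised TNFAIP6 alone among the 7 (29.1%) and lowered CEMIP2, HYAL2 and HYAL3 (28.3%), with 57.4% called. Co-culture at rest, M0+iMSCs against M0, raised 3 (36.2%) and lowered 3 (33.6%), with 69.8% called. The difference between the co-culture effects with and without stimulation, the interaction, was positive for 2 genes (31.1%) and negative for 4 (31.1%), with 62.1% called. The groups compared stood apart, library by library, for 6 of the 7 genes with co-culture under stimulation (65.9% of all genes), for 7 with stimulation in the presence of iMSCs (70.2%), for 5 with stimulation without iMSCs (52.2%) and for 5 with co-culture at rest (69%). With so many genes called, the counts over 7 members say little, and the size and direction of single genes are described below. With library totals alone, co-culture under stimulation raised 3 and lowered 3 of the 7, and the split of all called genes was 9020 higher and 3066 lower, against 5876 and 5555. That scaling gave 2520 higher and 6938 lower for stimulation without iMSCs, against 4451 and 4328, and 7029 and 3108 for the interaction, against 4752 and 4754. The comparisons share libraries with each other.

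**Figure D1:**
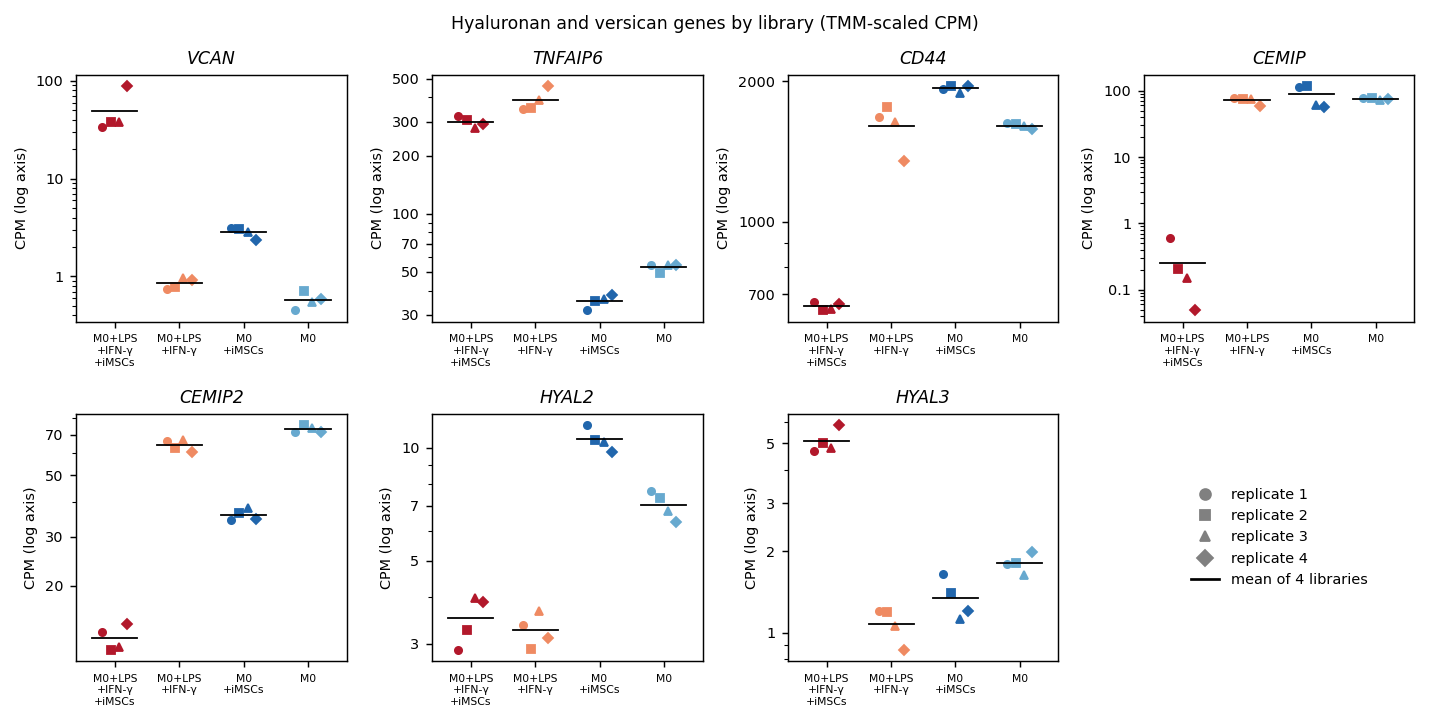
Level of each tested gene in every library, in CPM on log axes, with the groups along the horizontal axis, 1 symbol per replicate number and a line at the mean of 4 libraries. VCAN lies between 34.1 and 89.1 CPM and CEMIP between 0.0486 and 0.597 CPM in M0+LPS+IFN-γ+iMSCs, outside the range of every other group.

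VCAN encodes the versican core protein. It is ENSG00000038427, at chromosome 5, 83471618 to 83582303 on the plus strand of GRCh38.p13, as the table gives it. Its promoter is printed with those of CEMIP and TNFAIP6 because these 3 genes gave the largest fold changes of the 7 between groups. The sequences are from RefSeq on GRCh38.p14, all on the plus strand, end at the base before the gene begins in the deposited table, and run 5′ to 3′. They cover chr5:83471494-83471617 for VCAN, chr15:80779120-80779342 for CEMIP and chr2:151357342-151357591 for TNFAIP6. Capitals mark a match to the AP-1 motif searched, TGANTCA.
VCAN: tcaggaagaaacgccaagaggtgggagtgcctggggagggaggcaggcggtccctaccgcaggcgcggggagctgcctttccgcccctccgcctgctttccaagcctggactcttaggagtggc
CEMIP: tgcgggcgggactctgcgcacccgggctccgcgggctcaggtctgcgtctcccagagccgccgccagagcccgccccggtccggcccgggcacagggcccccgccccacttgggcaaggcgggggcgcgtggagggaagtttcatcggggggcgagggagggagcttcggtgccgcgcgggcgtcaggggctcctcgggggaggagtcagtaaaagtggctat
TNFAIP6: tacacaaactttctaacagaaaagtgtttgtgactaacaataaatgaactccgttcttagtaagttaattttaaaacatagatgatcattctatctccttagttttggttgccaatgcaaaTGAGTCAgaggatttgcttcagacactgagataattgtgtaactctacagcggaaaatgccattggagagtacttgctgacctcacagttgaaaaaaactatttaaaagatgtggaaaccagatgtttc

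Over the 250 bases before the RefSeq start, the 3 promoters differ in base composition. G and C made up 34.4% of the TNFAIP6 window, against 74.4% for CEMIP and 60.8% for VCAN, and the median of 35116 RefSeq promoters was 58%. On both strands of the 250 bases before each start, 4 motifs were searched: AP-1, the interferon-gamma activated site (GAS, TTCNNNGAA), the core of the interferon-stimulated response element (ISRE) and NF-kB. All 8 genes matched a RefSeq promoter, HYAL3 with 2. TNFAIP6 held 1 AP-1 match, TGAGTCA, 129 bases before its start, and 1 of the HYAL3 promoters held 1 NF-kB match. The pattern TGANTCA is met there on both strands, because its middle base can be any base. No other window of the 8 genes held a match. Of all promoters, 6.57% held an AP-1 match, 6.57% a GAS match, 3.02% an ISRE core and 9.96% an NF-kB match. A match describes letters only and is not a site of binding.

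VCAN had 34.1, 37.6, 38.0 and 89.1 CPM in the 4 M0+LPS+IFN-γ+iMSCs libraries, against 0.742, 0.778, 0.953 and 0.922 CPM in M0+LPS+IFN-γ. It had 3.16, 3.02, 2.84 and 2.36 CPM in M0+iMSCs, against 0.448, 0.701, 0.545 and 0.581 CPM in M0. No groups overlapped, and replicate 4 of M0+LPS+IFN-γ+iMSCs lay far above the other 3 of its group. Co-culture under stimulation raised VCAN by 5.86 ± 0.34 (edgeR adjusted p = 7.11e-10), 58-fold. This ranked 96 from the top among 15301 genes, and without that replicate it was 5.42. Co-culture without stimulation raised VCAN by 2.31 ± 0.42 (edgeR adjusted p = 0.000194). The co-culture effect was larger under stimulation by 3.55 ± 0.65 (edgeR adjusted p = 0.000244). Stimulation without iMSCs gave 0.58 ± 0.54 (edgeR adjusted p = 0.378), which missed the threshold, while stimulation in the presence of iMSCs raised VCAN by 4.13 ± 0.29 (edgeR adjusted p = 5.61e-09). The mean level was 49.7 ± 26.3 CPM in M0+LPS+IFN-γ+iMSCs, 0.849 ± 0.104 in M0+LPS+IFN-γ, 2.85 ± 0.348 in M0+iMSCs and 0.569 ± 0.105 in M0. VCAN was the 1 gene of its family of hyaluronan-binding proteoglycans (ACAN, BCAN and NCAN being the others) with enough counts to be tested.

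Mesenchymal stromal cells also make versican, so 18 markers of that cell type are set beside it. Of the 13 tested, 5 rose and 5 fell with co-culture under stimulation (6 and 3 with library totals alone), and 6 rose and 3 fell with co-culture at rest. Their summed level was 522 to 560 CPM in M0+LPS+IFN-γ+iMSCs, 1096 to 1274 in M0+LPS+IFN-γ, 1308 to 1627 in M0+iMSCs and 1550 to 1599 in M0. One marker, NT5E, held much of this sum and set its order, with 94.1 to 121 CPM in M0+LPS+IFN-γ+iMSCs, 697 to 966 in M0+LPS+IFN-γ, 492 to 636 in M0+iMSCs and 1252 to 1310 in M0. The other 17 markers summed to 414 to 440.4 CPM in M0+LPS+IFN-γ+iMSCs, 295 to 399.6 in M0+LPS+IFN-γ, 784 to 1020 in M0+iMSCs and 289 to 308 in M0. Without NT5E the sum was higher in each co-culture group than in its counterpart without iMSCs, with no overlap, but again few markers set it. ENG held most of it in M0+LPS+IFN-γ+iMSCs, with 318, 316, 319 and 301 CPM, against 131, 120, 125 and 310 in M0+LPS+IFN-γ. In M0+iMSCs COL6A3 and PDGFRA held most of it. COL6A3 had 279, 287, 272 and 290 CPM there, against 13.2, 14, 12.9 and 15.2 in M0. COL1A2 and COL5A1, fibrillar collagen genes, had 0 counts in both co-culture groups, POSTN had 0 in M0+LPS+IFN-γ+iMSCs and COL3A1 had 0 in M0+iMSCs. The markers did not move together. COL6A3 had 0.643, 0.612, 0.713 and 0.535 CPM in M0+LPS+IFN-γ+iMSCs, against 5.48, 5.6, 5.42 and 0.519 in M0+LPS+IFN-γ. PDGFRA had 68.6, 55.9, 58.4 and 59.1 CPM in M0+LPS+IFN-γ+iMSCs, 149, 138, 148 and 45.2 in M0+LPS+IFN-γ and 537, 510, 390 and 325 in M0+iMSCs. DCN, which encodes the matrix proteoglycan decorin, instead went the same way as VCAN. DCN had 18.4, 20.9, 19.8 and 16.2 CPM in M0+LPS+IFN-γ+iMSCs, at most 0.151 CPM in M0+LPS+IFN-γ, 1.05, 1.19, 0.56 and 0.348 CPM in M0+iMSCs, and 0 in M0. LUM (lumican) had 0.826 to 1.7 CPM in M0+LPS+IFN-γ+iMSCs and at most 0.0842 CPM elsewhere. The part of these markers in the VCAN result was not tested.

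TNFAIP6 encodes TSG-6, a secreted protein induced by inflammatory signals that transfers heavy chains of inter-alpha-inhibitor onto hyaluronan. It is ENSG00000123610, at chromosome 2, 151357592 to 151380046 on the plus strand. TNFAIP6 had 320.7, 304, 278 and 292 CPM in M0+LPS+IFN-γ+iMSCs, against 349.8, 352, 387 and 459.7 CPM in M0+LPS+IFN-γ. It had 31.5, 35.4, 36.2 and 37.7 CPM in M0+iMSCs, against 54.0, 49.4, 54.4 and 54.2 CPM in M0. The stimulated libraries lay far above the unstimulated ones, and within each of these the co-culture group was the lower, without overlap. Stimulation raised TNFAIP6 by 2.87 ± 0.08 without iMSCs (edgeR adjusted p = 3.76e-14) and by 3.08 ± 0.09 with them (edgeR adjusted p = 5.12e-15). Co-culture lowered it under stimulation (log2 fold change -0.38 ± 0.08, edgeR adjusted p = 0.000349) and at rest (-0.59 ± 0.08, edgeR adjusted p = 5.81e-06). Scaled by library totals alone, the change under stimulation was 0.10 (edgeR adjusted p = 0.235), so its direction depended on the scaling. The interaction was 0.21 ± 0.11 (edgeR adjusted p = 0.113), and without M0+LPS+IFN-γ replicate 4 it was 0.31 (edgeR adjusted p = 0.0023). With library totals alone the interaction was 0.55 (edgeR adjusted p = 0.000263).

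CD44 is a transmembrane glycoprotein that binds hyaluronan through its outer link domain. It is ENSG00000026508, at chromosome 11, 35138882 to 35232402 on the plus strand. Per kilobase of exon it had 119 to 124 CPM in M0+LPS+IFN-γ+iMSCs, where TNFAIP6 had 195 to 226, and 249 to 324 CPM in M0+LPS+IFN-γ, where TNFAIP6 overlapped it with 246 to 323. In M0+iMSCs (349 to 361) and M0 (292 to 300) CD44 was the highest of the 8 genes. CD44 had 672, 645, 651 and 665 CPM in M0+LPS+IFN-γ+iMSCs, against 1679, 1760, 1639 and 1353 CPM in M0+LPS+IFN-γ. It had 1930, 1956, 1893 and 1958 CPM in M0+iMSCs, against 1631, 1618, 1602 and 1584 CPM in M0. CD44 therefore lay lowest, without overlap, where both treatments were combined, and highest in M0+iMSCs. Co-culture under stimulation lowered it (log2 fold change -1.29 ± 0.06, edgeR adjusted p = 7.67e-12), while co-culture at rest raised it by 0.27 ± 0.06 (edgeR adjusted p = 0.00116). The interaction was -1.55 ± 0.09 (edgeR adjusted p = 2.06e-10), so the direction of the co-culture change differed with stimulation. Stimulation without iMSCs gave -0.001 ± 0.063 (edgeR adjusted p = 0.993), and the groups overlapped. With library totals alone that change was called lower (-0.26, edgeR adjusted p = 0.0025). With iMSCs, stimulation lowered CD44 (log2 fold change -1.55 ± 0.06, edgeR adjusted p = 7.58e-13).

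Within a library, the number of TNFAIP6 reads for every 100 CD44 reads needs no scaling between libraries. It was 42.6 to 47.7 in M0+LPS+IFN-γ+iMSCs, 20 to 34 in M0+LPS+IFN-γ, 1.63 to 1.93 in M0+iMSCs and 3.06 to 3.42 in M0, with no overlap between groups. Co-culture thus went with more TNFAIP6 for each CD44 read under stimulation and with less at rest. Under stimulation CD44 fell with co-culture (mean 658.6 against 1608 CPM), while TNFAIP6 was not called higher (298.6 against 387.3). The highest value in M0+LPS+IFN-γ belonged to replicate 4, the library that stood apart.

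HAS1 encodes a hyaluronan synthase of the plasma membrane. It is ENSG00000105509, at chromosome 19, 51713112 to 51723991 on the minus strand. It had 1 count in all, in 1 library of M0+LPS+IFN-γ+iMSCs, and 0 counts in the other groups. A count of 0 allows up to 3 counts over a group, which is 0.0405 CPM in M0+LPS+IFN-γ, 0.0328 CPM in M0+iMSCs and 0.0355 CPM in M0, and the same 3 counts would be 0.0321 CPM in M0+LPS+IFN-γ+iMSCs. Changes of HAS1 were not detectable at this depth.

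CEMIP encodes a secreted protein needed for hyaluronan depolymerization by fibroblasts. It is ENSG00000103888, at chromosome 15, 80779343 to 80951776 on the plus strand. CEMIP had 13, 5, 4 and 1 counts in the M0+LPS+IFN-γ+iMSCs libraries, which is 0.597, 0.204, 0.150 and 0.0486 CPM, against 78.0, 74.6, 74.3 and 58.5 CPM in M0+LPS+IFN-γ. It had 116, 119, 61.3 and 56.3 CPM in M0+iMSCs, against 76.7, 77.7, 73.4 and 76.1 CPM in M0. CEMIP was thus close to 0 in 1 group and, among the other 3 groups, all libraries lay within 56.3 to 119 CPM and the groups overlapped. Co-culture under stimulation lowered it (log2 fold change -8.14 ± 0.41, edgeR adjusted p = 3.3e-10), 283-fold. This change ranked 12 from the bottom among 15301 genes, and without replicate 1 of M0+LPS+IFN-γ+iMSCs, the library with 13 counts, it was -8.94. Stimulation in the presence of iMSCs lowered CEMIP as well (-8.44 ± 0.41, edgeR adjusted p = 2.36e-10, or -9.24 without that library). The interaction was -8.35 ± 0.49 (edgeR adjusted p = 5.01e-09), a size that 25 of the tested genes exceeded, and -9.14 without that library. Neither treatment alone reached the threshold, with 0.21 ± 0.23 for co-culture at rest (edgeR adjusted p = 0.435) and -0.09 ± 0.23 for stimulation without iMSCs (edgeR adjusted p = 0.761). The M0+iMSCs libraries were split. With replicates 1 and 2 alone the co-culture change at rest was 0.63 (edgeR adjusted p = 0.00484), and with replicates 3 and 4 alone it was -0.37 (edgeR adjusted p = 0.0827).

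CEMIP2 encodes a membrane protein related to CEMIP, described as a cell surface hyaluronidase in mouse. It is ENSG00000135048, at chromosome 9, 71683366 to 71816690 on the minus strand. CEMIP2 had 13.6, 11.8, 12.1 and 14.6 CPM in M0+LPS+IFN-γ+iMSCs, against 66.5, 62.8, 66.9 and 60.4 CPM in M0+LPS+IFN-γ. It had 34.6, 36.5, 38.0 and 34.7 CPM in M0+iMSCs, against 71.5, 75.7, 73.8 and 71.6 CPM in M0. None of the 4 groups overlapped, and both co-culture groups lay below both groups without iMSCs. Co-culture lowered CEMIP2 under stimulation (log2 fold change -2.30 ± 0.07, edgeR adjusted p = 1.25e-14) and at rest (-1.02 ± 0.06, edgeR adjusted p = 2.92e-10). The interaction was -1.28 ± 0.09 (edgeR adjusted p = 2.86e-09). Stimulation without iMSCs lowered it slightly (-0.19 ± 0.06, edgeR adjusted p = 0.0159, or 0.0509 without a filter on low counts), and stimulation with iMSCs by more (-1.47 ± 0.07, edgeR adjusted p = 2.62e-12).

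Of the reads of CEMIP and CEMIP2 together, CEMIP made up 0.332 to 4.21% in M0+LPS+IFN-γ+iMSCs, 49.2 to 54.3% in M0+LPS+IFN-γ, 61.7 to 77% in M0+iMSCs and 49.9 to 51.8% in M0. Both genes fell with co-culture under stimulation, and CEMIP by the larger factor, so that CEMIP2 held nearly all of the joint reads there. At rest co-culture went with a larger CEMIP share, without overlap with M0, as CEMIP2 fell.

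**Figure D2:**
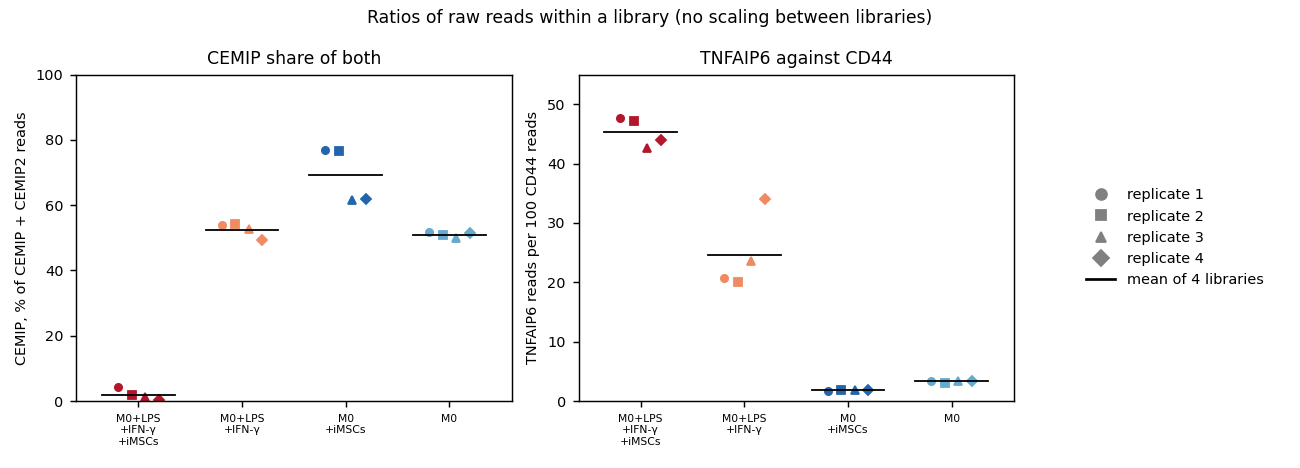
Left, CEMIP reads as a percentage of CEMIP and CEMIP2 reads in each library. Right, TNFAIP6 reads for every 100 CD44 reads, with the groups along the horizontal axes and a line at the mean of 4 libraries. The CEMIP share is at most 4.21% in M0+LPS+IFN-γ+iMSCs and at least 49.2% elsewhere, and TNFAIP6 against CD44 is highest in M0+LPS+IFN-γ+iMSCs.

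HYAL2 encodes a hyaluronidase anchored at the cell surface that cuts long hyaluronan into shorter pieces. It is ENSG00000068001, at chromosome 3, 50317790 to 50322782 on the minus strand. HYAL2 had 2.89, 3.27, 3.98 and 3.89 CPM in M0+LPS+IFN-γ+iMSCs, against 3.37, 2.91, 3.66 and 3.11 CPM in M0+LPS+IFN-γ. It had 11.5, 10.5, 10.4 and 9.75 CPM in M0+iMSCs, against 7.67, 7.36, 6.79 and 6.34 CPM in M0. The stimulated groups overlapped each other and lay below both unstimulated groups. Stimulation lowered HYAL2 without iMSCs (log2 fold change -1.11 ± 0.12, edgeR adjusted p = 4.61e-07) and with them (-1.58 ± 0.11, edgeR adjusted p = 9.61e-10). Co-culture raised it at rest by 0.58 ± 0.11 (edgeR adjusted p = 0.000119). Under stimulation co-culture gave 0.10 ± 0.12 (edgeR adjusted p = 0.453), or 0.58 (edgeR adjusted p = 0.0004) with library totals alone. The interaction was -0.48 ± 0.16 (edgeR adjusted p = 0.0185), and with library totals alone it was -0.14 (edgeR adjusted p = 0.467). With M0+iMSCs replicates 3 and 4 alone the interaction was -0.41 and was not called (edgeR adjusted p = 0.0645). In the GENCODE 29 annotation HYAL2 shares 11.2% of its 4545 exonic bases with TUSC2 on the same strand. The deposited table gives HYAL2 an exon length of 1882 bases, so the shared part there may differ. TUSC2 had 1383 counts in M0+LPS+IFN-γ+iMSCs, 1710 in M0+LPS+IFN-γ, 2249 in M0+iMSCs and 2156 in M0. Whether reads of shared bases were counted for HYAL2 is not stated.

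HYAL3 encodes a less active relative of HYAL2. It is ENSG00000186792, at chromosome 3, 50292831 to 50299405 on the minus strand. HYAL3 had 4.69, 5.02, 4.80 and 5.84 CPM in M0+LPS+IFN-γ+iMSCs, against 1.20, 1.19, 1.05 and 0.865 CPM in M0+LPS+IFN-γ. It had 1.64, 1.40, 1.12 and 1.20 CPM in M0+iMSCs, against 1.79, 1.80, 1.64 and 1.99 CPM in M0. As for VCAN, the group with both treatments lay above the other 3 without overlap. Co-culture under stimulation raised HYAL3 by 2.23 ± 0.15 (edgeR adjusted p = 4.61e-10), with an interaction of 2.66 ± 0.22 (edgeR adjusted p = 1.74e-08). Stimulation with iMSCs raised it by 1.92 ± 0.14 (edgeR adjusted p = 1.6e-09), while stimulation without iMSCs lowered it (-0.74 ± 0.17, edgeR adjusted p = 0.00116). Co-culture at rest gave -0.43 ± 0.16 (edgeR adjusted p = 0.0224) with overlapping groups, and this call was lost in 8 alternative settings, among them leaving out M0 replicate 4 (edgeR adjusted p = 0.0611), M0+iMSCs replicate 3 (0.0818) or M0+iMSCs replicate 4 (0.0703), and keeping M0+iMSCs replicates 1 and 2 alone (-0.23, edgeR adjusted p = 0.366). HYAL3 shares 12.2% of its exonic bases with NAA80, which had 206 counts in M0+LPS+IFN-γ+iMSCs, 86 in M0+LPS+IFN-γ, 209 in M0+iMSCs and 106 in M0, and 2.12% with IFRD2. NAA80 was higher in both co-culture groups, HYAL3 in 1 of them, and reads of the shared bases cannot be told apart.

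Per kilobase of exon, the order of the 4 breakdown genes was not the same in all groups. In M0+LPS+IFN-γ+iMSCs the library values were 2.5 to 3.11 CPM per kb for HYAL3, 1.91 to 2.37 for CEMIP2, 1.54 to 2.11 for HYAL2 and 0.00662 to 0.0812 for CEMIP. There HYAL3 was the highest without overlap, while CEMIP2 and HYAL2 overlapped. In M0 they were 11.6 to 12.3 CPM per kb for CEMIP2, 9.99 to 10.6 for CEMIP, 3.37 to 4.07 for HYAL2 and 0.871 to 1.06 for HYAL3, so that HYAL3 was the lowest and no genes overlapped. In M0+LPS+IFN-γ CEMIP2 (9.81 to 10.9) and CEMIP (7.95 to 10.6) overlapped at the top, and in M0+iMSCs CEMIP (7.66 to 16.1) was above CEMIP2 (5.62 to 6.18) and HYAL2 (5.18 to 6.11), which overlapped.

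**Figure D3:**
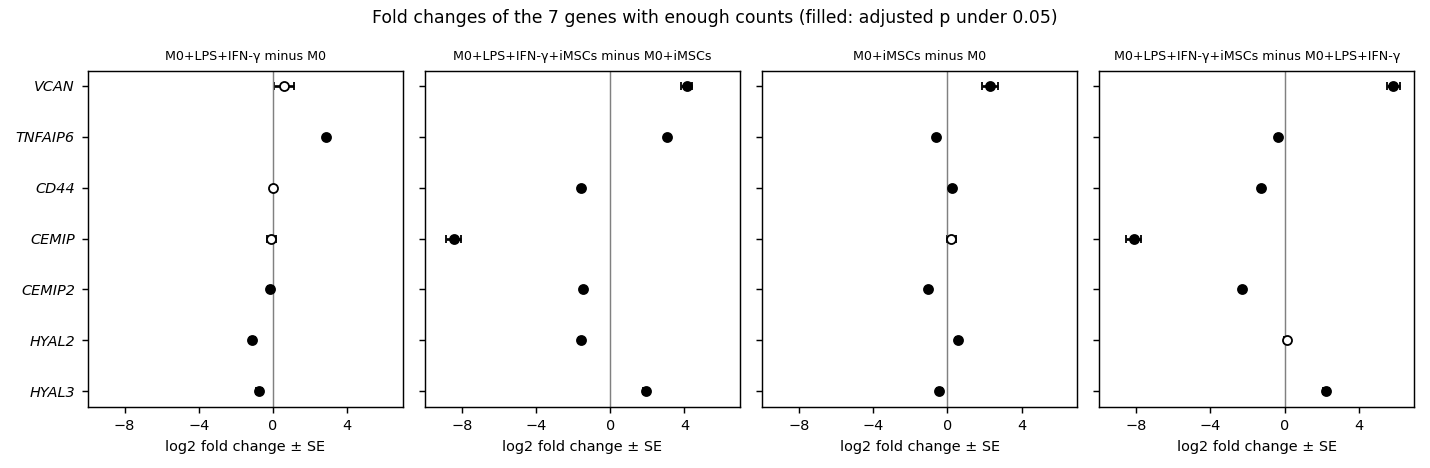
Log2 fold change ± SE of the 7 tested genes in 4 comparisons, 1 panel for each, with filled points at an edgeR adjusted p under 0.05. In the comparison of M0+LPS+IFN-γ+iMSCs with M0+LPS+IFN-γ the points span -8.14 for CEMIP to 5.86 for VCAN, and in that of M0+LPS+IFN-γ with M0 they span -1.11 for HYAL2 to 2.87 for TNFAIP6.

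The other genes of the pathway were listed by role, 81 genes in all, of which 59 were tested. Co-culture under stimulation raised 21 and lowered 28 of them, 83.1% called against 74.7% of all genes, and with library totals alone the split was 31 and 17. Over all genes 38.4% rose and 36.3% fell in that comparison. These shares stand beside the counts of every list below, and no list was tested against them. At rest co-culture raised 24 and lowered 19 (72.9% called, or 27 and 13 with library totals alone). Stimulation raised 14 and lowered 19 without iMSCs (55.9%, or 12 and 31 with library totals alone), and raised 21 and lowered 26 with them (79.7%). The interaction was called for 39 genes, 15 positive and 24 negative (66.1%, or 21 and 20 with library totals alone). Without M0+LPS+IFN-γ replicate 4 more list genes were called in each comparison. There were 51 for co-culture under stimulation, 49 for co-culture at rest, 41 for stimulation without iMSCs, 55 for stimulation with them and 45 for the interaction. Counts over all genes also moved when single libraries were left out, as given in a later section.

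Of 11 tested genes for synthesis of hyaluronan and its sugar precursors, 3 rose and 7 fell with co-culture under stimulation, or 4 rose and 4 fell with library totals alone. The median on the log2 scale was -0.69, against 0.03 for all genes. With library totals alone the falls in GFPT1, GNPNAT1 and UAP1 were no longer called, and HK1 was called higher (0.57, edgeR adjusted p = 2.28e-08). HAS2, the synthase that many stromal cells use, had 0 counts in M0+LPS+IFN-γ+iMSCs, against 7.31, 6.80, 7.83 and 0.922 CPM in M0+LPS+IFN-γ. With 3 counts over the group as the floor, it was at least 181-fold lower in M0+LPS+IFN-γ+iMSCs. Stimulation without iMSCs raised HAS2 by 4.88 ± 0.67 (edgeR adjusted p = 5.39e-05), and replicate 4 of M0+LPS+IFN-γ was far below the other 3. UGDH, which makes the glucuronic acid precursor, averaged 30.8 ± 0.993 CPM in M0+LPS+IFN-γ+iMSCs and 104 ± 27.2 in M0+LPS+IFN-γ (log2 fold change -1.76, edgeR adjusted p = 2.78e-08). At rest UGDH averaged 269 ± 17.1 CPM in M0+iMSCs and 121 ± 4.81 in M0 (1.15, edgeR adjusted p = 3.02e-06), so it moved the other way. GFPT2, which opens the hexosamine route to the other precursor, averaged 7.73 ± 0.989 CPM in M0+LPS+IFN-γ+iMSCs, 94.0 ± 38.9 in M0+LPS+IFN-γ, 95.1 ± 13.9 in M0+iMSCs and 36.2 ± 1.54 in M0 (interaction -4.99, edgeR adjusted p = 1.82e-07). PGM3 of the same route fell with co-culture under stimulation (-1.70, edgeR adjusted p = 5.98e-08). UGP2, which makes UDP-glucose, rose in all 4 comparisons, by 1.15 with co-culture under stimulation (edgeR adjusted p = 3.6e-09). GPI, of the same list, rose by 0.68 with co-culture under stimulation (edgeR adjusted p = 2.57e-09).

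Among 6 tested receptors, 3 rose and 3 fell with co-culture under stimulation. HMMR, a hyaluronan-binding protein that is also a mitotic spindle component, averaged 11.7 ± 2.74 CPM in M0+LPS+IFN-γ+iMSCs, 0.643 ± 0.205 in M0+LPS+IFN-γ, 8.87 ± 2.65 in M0+iMSCs and 0.39 ± 0.0896 in M0. It rose with co-culture under stimulation (4.19, edgeR adjusted p = 3.23e-10) and at rest (4.48, edgeR adjusted p = 6.66e-10). TLR4, the LPS receptor that also responds to hyaluronan fragments, had 129, 126, 114 and 144 CPM in M0+LPS+IFN-γ+iMSCs, against 17.9, 17, 21.5 and 46.9 CPM in M0+LPS+IFN-γ (2.32, edgeR adjusted p = 1.45e-06). LAYN (layilin) had 0 counts in M0+LPS+IFN-γ+iMSCs, at least 44-fold lower than in M0+iMSCs and at least 8.41-fold lower than in M0+LPS+IFN-γ. STAB1, a scavenger receptor, had 379 counts in M0+LPS+IFN-γ+iMSCs and 0 in M0+iMSCs, at least 123-fold higher.

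**Figure D4:**
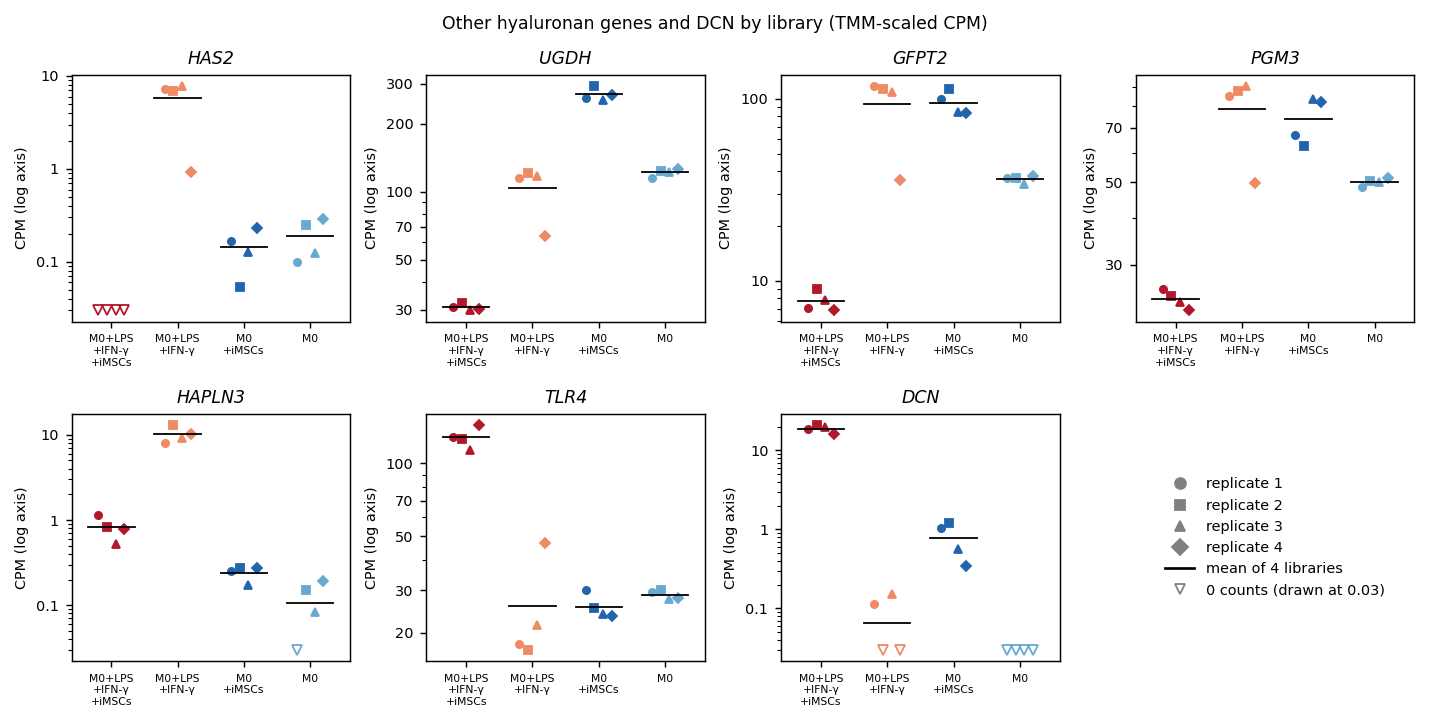
Levels of 6 other genes of the pathway and of DCN in every library, in CPM on log axes, with 1 symbol per replicate number, a line at the mean of 4 libraries and open triangles for 0 counts. Replicate 4 of M0+LPS+IFN-γ lies apart from the other 3 for HAS2 (0.922 CPM), UGDH (63.6), GFPT2 (36.0) and TLR4 (46.9).

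Of the hyaluronan-binding and cross-linking proteins 6 were tested, 2 of which rose and 3 of which fell with co-culture under stimulation (2 and 1 with library totals alone). HAPLN3, a link protein that holds proteoglycans on hyaluronan, averaged 0.817 ± 0.256 CPM in M0+LPS+IFN-γ+iMSCs, 10.2 ± 2.09 in M0+LPS+IFN-γ, 0.241 ± 0.0468 in M0+iMSCs and 0.107 ± 0.0844 in M0. Stimulation without iMSCs raised it by 6.50 ± 0.32 (edgeR adjusted p = 2.75e-11), and co-culture under stimulation lowered it (-3.64 ± 0.23, edgeR adjusted p = 1.93e-10). PTX3, a pentraxin that works with TSG-6 in cross-linked hyaluronan, rose by 1.48 with co-culture under stimulation (edgeR adjusted p = 9.87e-09).

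The chains that versican carries are made by chondroitin sulfate enzymes, of which 20 of 20 were tested. With co-culture under stimulation 9 rose and 8 fell, with a median of 0.25. The split depended on the scaling, with 11 higher and 5 lower by upper-quartile factors and 14 higher and 3 lower by library totals alone. The falls with the smallest p were CSGALNACT2, which starts chains (-2.29, edgeR adjusted p = 6.71e-15), CHST15, a sulfotransferase (-1.78, edgeR adjusted p = 2.34e-12), and CHSY1, which extends chains (70.9 ± 3.33 CPM in M0+LPS+IFN-γ+iMSCs, 284 ± 58 in M0+LPS+IFN-γ, edgeR adjusted p = 1.01e-11). XYLT2, which links the first sugar to the core protein, rose (1.78, edgeR adjusted p = 1.56e-10), to 19.3 ± 1.63 CPM in M0+LPS+IFN-γ+iMSCs, against 5.6 ± 0.48 in M0+LPS+IFN-γ.

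Of 7 tested versican-cleaving proteases, 2 rose and 4 fell with co-culture under stimulation. MMP7 averaged 19.5 ± 2.08 CPM in M0+LPS+IFN-γ+iMSCs and 177 ± 11.4 in M0+LPS+IFN-γ (-3.18, edgeR adjusted p = 2.18e-13), and MMP12 averaged 4.2 ± 0.75 CPM in M0+LPS+IFN-γ+iMSCs and 43.2 ± 0.967 in M0+LPS+IFN-γ (-3.36, edgeR adjusted p = 9.88e-10). ADAMTS8 fell (-4.57, edgeR adjusted p = 4.21e-06, or -3.81 without M0+LPS+IFN-γ replicate 4), and ADAMTS5 rose to 1.58 ± 0.664 CPM in M0+LPS+IFN-γ+iMSCs, against 0.197 ± 0.146 in M0+LPS+IFN-γ (2.95, edgeR adjusted p = 2.29e-06). ADAMTS1 had its highest mean in M0+iMSCs, 47.7 ± 12.6 CPM, against 21.6 ± 1.55 in M0, and fell with stimulation without iMSCs (-2.38, edgeR adjusted p = 1.13e-09). Of 8 tested genes that cleave or partner CD44, 1 rose and 5 fell with co-culture under stimulation, or 3 and 4 with library totals alone, where ADAM10 and MSN were called higher and RDX was not called. ADAM17, a sheddase, fell (-1.50, edgeR adjusted p = 1.45e-11), as did MMP14, which cleaves CD44 at the cell surface (-0.88, edgeR adjusted p = 2.19e-11), and SRGN, a proteoglycan that binds CD44 (-1.02, edgeR adjusted p = 9.09e-07).

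**Figure D5:**
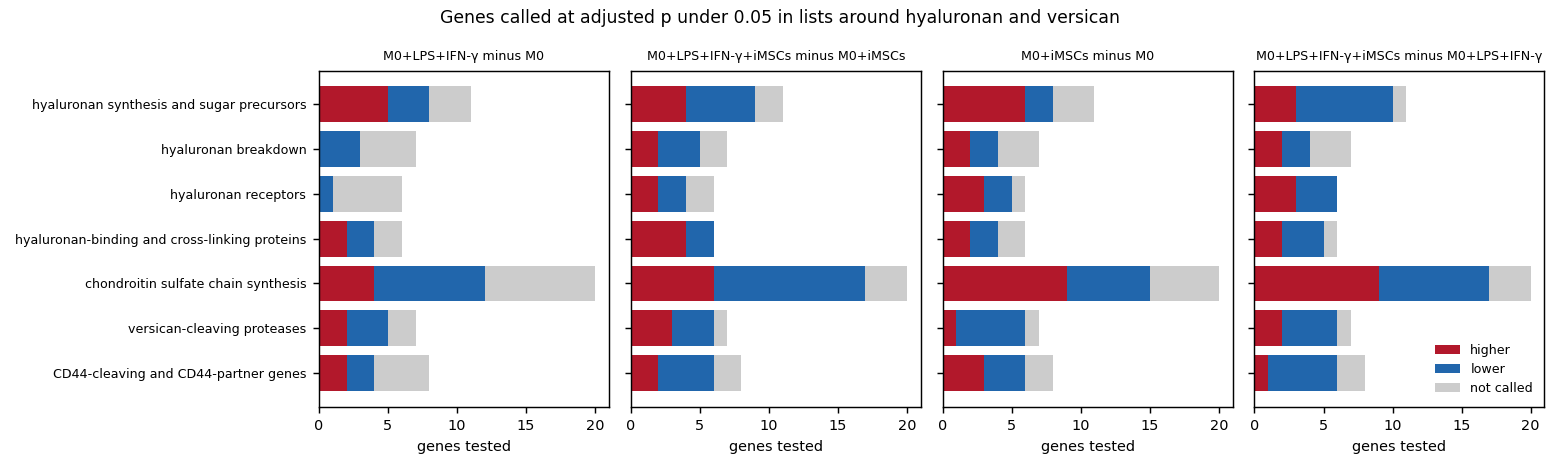
Number of tested genes called higher, called lower or not called (edgeR adjusted p under 0.05) in 7 gene lists and 4 comparisons. In the comparison of M0+LPS+IFN-γ+iMSCs with M0+LPS+IFN-γ, 7 of 11 synthesis genes are lower and 3 higher, a split that was 4 and 4 with library totals alone.

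Genes with the most similar profile over the 16 libraries were named by the smallest root mean square difference of centred log2 CPM, among 8373 genes with a mean log2 CPM of at least 3. CEMIP was nearest to MDGA1 (0.79), STC1 (0.87) and INHBA (0.99), all on the log2 scale. STC1 averaged 3.77 ± 0.819 CPM in M0+LPS+IFN-γ+iMSCs, 396 ± 206 in M0+LPS+IFN-γ, 815 ± 252 in M0+iMSCs and 489.9 ± 14.1 in M0. CEMIP2 was nearest to PTPRE (0.15), IL6R (0.16) and ZFPM2-AS1 (0.17), CD44 to MPG (0.11), LATS2 (0.12) and FRG1CP (0.13), and TNFAIP6 to RHOH (0.31), TYMP (0.33) and LIMK2 (0.33). VCAN lay under the level minimum and its neighbours were looked up after its values were seen. They were ANTXR1 (0.61), ALOX5AP (0.67) and CD4 (0.82), and ALOX5AP averaged 804 ± 37.8 CPM in M0+LPS+IFN-γ+iMSCs, 27 ± 14.2 in M0+LPS+IFN-γ, 69.9 ± 4.22 in M0+iMSCs and 32.4 ± 2.34 in M0.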

How the data were processed

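The deposited table holds unnormalized whole-number counts for each gene in 16 libraries. Per the labels' protocols, a VAHTS Universal V6 kit was used. HISAT2, HTSeq and GRCh38 are named without roles or versions, per the submitters' processing notes, and coordinates are on GRCh38.p13, per the file headers. The use of strand in counting and the handling of shared reads are not given in the sources used here.

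The tests ran in edgeR 4.0.16 under R 4.3.3: filterByExpr, TMM factors and 1 robust quasi-likelihood fit of all 4 groups with 12 residual degrees of freedom and no block. Benjamini-Hochberg adjustment covered 15301 genes in each of 5 comparisons (threshold 0.05). The SE is the size of the log2 fold change divided by √F of its test, and is approximate where a group has almost no counts. Log2 CPM used a prior count of 2. CPM per kb used the deposited exon length. Floors of 3 counts over a group cover counting error only. Every pair of replicates differed by more than sampling noise, which does not show whether they were separate cultures. Each library was counted as 1 sample. The fit was checked on simulated data.

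The 8 genes, the gene lists and the tests were chosen with earlier results of these data known. Genes to be named were the 8, up to 4 called genes of smallest p in each list and comparison, and the 3 nearest profiles of each tested gene with a mean log2 CPM of at least 3. Not every gene that met this rule was named. Cell type markers, genes sharing exonic bases, genes whose call changed with the scaling, ITIH3 and ITIH4 were among those named outside it. Alternatives were RLE, upper-quartile and library-total scaling, DESeq2 1.42.0, limma 3.58.1, other filters, other sets of libraries, leaving out each library, and a replicate block. Fits with M0+iMSCs replicates 1 and 2 or 3 and 4 alone were chosen after seeing the data. Promoters and gene overlaps were read in python 3.11.15 and figures drawn with matplotlib 3.10.9.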

Additional observations from a re-analysis of the deposited data

Results flagged for a closer look

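In each of 28 groups of 4 libraries (7 genes in 4 groups), the gap between the highest or lowest library and its nearest neighbour was set against the range of the group. By chance about 5% of groups stand out this way, and 2 did. VCAN in M0+LPS+IFN-γ+iMSCs replicate 4 was 89.1 CPM, above the other 3 libraries of its group. TNFAIP6 in M0 replicate 2 was 49.4 CPM, below the other 3.

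The co-culture effect under stimulation differed from that at rest for 6 genes, by the interaction term of the edgeR fit. That term was called for 62.1% of all 15301 genes, so a call alone does not set these genes apart. On the log2 scale the difference was 3.55 for VCAN and 2.66 for HYAL3, and it was -8.35 for CEMIP, -1.28 for CEMIP2, -1.55 for CD44 and -0.48 for HYAL2. The HYAL2 difference was not called with library totals alone (edgeR adjusted p = 0.467) or with M0+iMSCs replicates 3 and 4 alone (edgeR adjusted p = 0.0645).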

How the results depend on the processing

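The counts of called genes over all genes, the 7 tested genes and the pooled lists, both directions together, stayed within 1.5 times their values in the alternatives run. By direction those over all genes did not with library totals alone, which gave 3066 genes lower against 5555 for co-culture under stimulation, 2520 higher against 4451 for stimulation without iMSCs and 3108 negative against 4754 for the interaction. Single lists were not held to this check, and some moved by more. Leaving out each library in turn gave 8144 to 9222 called genes for stimulation without iMSCs, 10238 to 11612 for co-culture at rest, 11110 to 12095 for co-culture under stimulation, 11133 to 12214 for stimulation in co-culture and 9165 to 10338 for the interaction, with 4, 5 to 6, 6, 7 and 6 to 7 of the 7 tested genes among them. With group means taken out, libraries of the same replicate number were little alike (16 correlations of -0.10 to 0.17, 1 of them over 0.1). This does not settle whether they shared a culture or day. With the replicate block 35 of 35 results of the 7 tested genes kept direction and call, with 8636, 10583, 11368, 11344 and 9395 called genes. Of the alternatives to the results of single genes, 913 kept both, 5 gained a call, 11 lost it and 9 changed sign. The sign changes were CD44 with stimulation without iMSCs (0.01 with RLE factors and with DESeq2, 0.003 without a filter, -0.049 to 0.074 when each library was left out, among them 0.005, 0.001 and 0.074 without M0 replicate 1, M0 replicate 2 and M0+LPS+IFN-γ replicate 4, and 0 with M0+iMSCs replicates 3 and 4 alone), TNFAIP6 with co-culture under stimulation with library totals (0.10) and CEMIP at rest with M0+iMSCs replicates 3 and 4 alone (-0.37). The cause was not tested. Library totals moved the median of all genes by -0.26 for stimulation without iMSCs, 0.14 for co-culture at rest, 0.47 for co-culture under stimulation and 0.33 for the interaction. VCAN under stimulation ranged from 5.42 to 6.33 and CEMIP from -8.94 to -7.68 over the alternatives. Depth limits HAS1, HAS2, LAYN and CEMIP in M0+LPS+IFN-γ+iMSCs.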

Other observations

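Some genes of the lists had too few counts to be tested. ITIH3, which encodes a heavy chain that TSG-6 can transfer onto hyaluronan, had 0.379, 0.432, 0.861 and 0.31 CPM in M0+iMSCs, against 0.0996, 0.1, 0.126 and 0.0484 CPM in M0, and 0 counts in all M0+LPS+IFN-γ+iMSCs libraries. The M0+iMSCs values rest on 9, 8, 20 and 8 counts. ITIH4, in the same list, went the other way, with 0 counts in M0+iMSCs, 3, 1, 6 and 1 in M0 and 2, 1, 5 and 2 in M0+LPS+IFN-γ+iMSCs. These values were chosen after they were seen and were not tested.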
